A study of Rattus norvegicus with 17 samples.

Results

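This account covers 119 genes of rat lung whose group mean was low after bleomycin and still low when the compound BI1015550 was also given. They were taken from the 32753 genes of the deposited count table. Each count was divided by its library total and multiplied by 1000000, which gives CPM, and the mean CPM of each group was taken. A gene was kept when its control mean was at least 2 CPM, its log2 ratio of bleomycin to control was at most -0.8, and its log2 ratio of treated to control was at most 0.7 of that value. An offset of 0.5 CPM was added to both means of a ratio. Of 816 genes that met the control and bleomycin conditions, the treated condition kept 119 and left out 697, called the other repressed genes below. The members were thus chosen by their measured levels in all 17 libraries, and those levels are given as a description, with no test.

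The libraries were made from messenger RNA of lung parenchyma of Wistar rats, strain RjHan:WI. There were 6 control libraries from rats given NaCl and 5 from rats given bleomycin at 1 mg per kg. A further 6 libraries came from rats given bleomycin at 1 mg per kg together with BI1015550 at 2.5 mg per kg, called treated below. All groups share the strain and the tissue. The labels used here state no age, sex, route, schedule or time of sampling, nor whether each library is from a separate animal, so p-values measure only the spread between these libraries, which may be technical. Libraries are named by group and by the number in their label, and numbers are not shared between groups. Library totals ran from 15919392 to 18462105 counts in controls, from 15207791 to 16192209 with bleomycin and from 14609389 to 15889091 in treated lungs. For these genes some libraries stood apart from their groups. Control libraries 1 and 5 each held most of the control reads of a few members. Treated library 16 carried the highest treated value of 53 members. In bleomycin lungs, library 11 was highest and library 7 lowest for 50 members each. Values with and without single libraries are given where they bear on a result.

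Bleomycin is a cytotoxic antibiotic that breaks DNA and is given to rodents to injure the lung. The injury strikes the alveolar epithelium and the capillary endothelium, and inflammation and deposition of matrix by fibroblasts follow. BI1015550 is an inhibitor of PDE4B, an enzyme that degrades the second messenger cyclic AMP, and raising cyclic AMP is known to restrain inflammatory cells and fibroblasts. In bulk lung RNA, fewer cells of a type and less RNA per cell cannot be told apart.

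The table lists genes by Ensembl rat IDs without names, and the reference gene table used here (assembly GRCr8) pairs none of these IDs with a symbol. The members are therefore described by their values. Cell type markers, pathway lists and promoter sequences could not be matched to the IDs, so the labelled tissue was not checked against its markers and no sequence is shown. Only 3 members are named by ID. The plot of bleomycin against treated ratios shows both thresholds and the place of the members among the other genes.

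**Figure D1:**
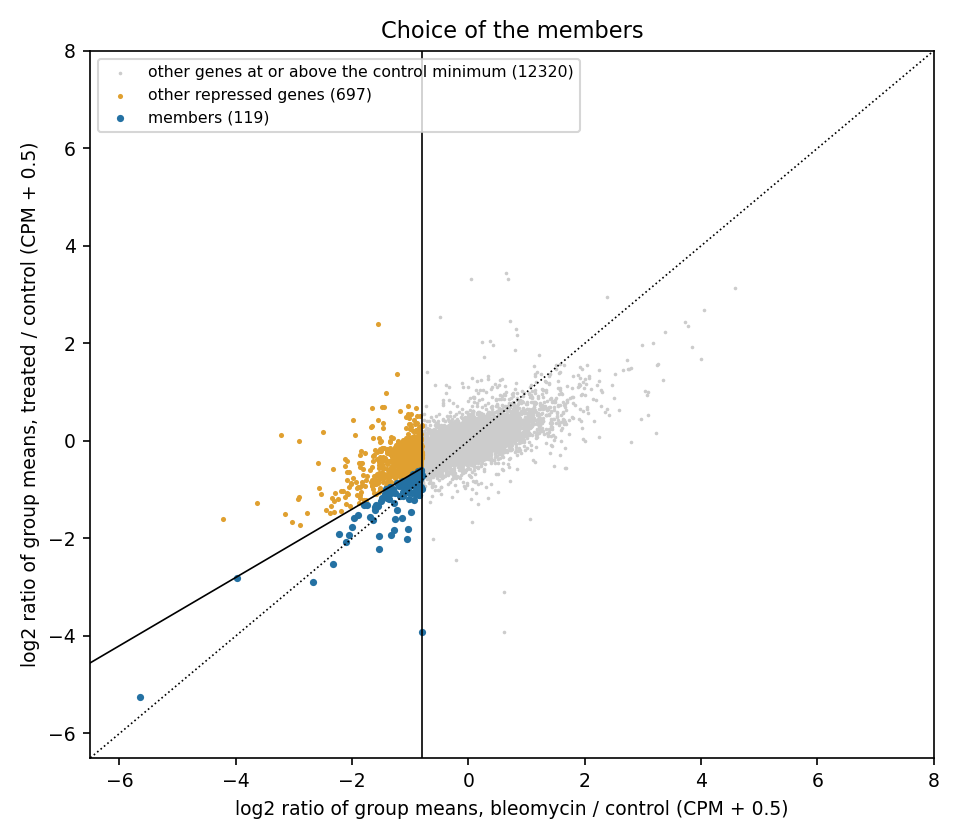
Each point is a gene with a control mean of at least 2 CPM, placed by its log2 ratio of bleomycin to control (x axis) and of treated to control (y axis). The vertical line at -0.8 and the sloped line at 0.7 of the bleomycin ratio bound the 119 members (blue). The 697 other repressed genes (orange) lie above the sloped line, and points on the dotted line have equal bleomycin and treated means.

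The members ranged from scarce to abundant transcripts. Their control means ran from 2.09 to 2036 CPM with a median of 12.6 CPM, and the middle 50% of them lay between 4.38 and 36.6 CPM. Control means were under 5 CPM for 37 members and at least 100 CPM for 15. With bleomycin the median over members was 4.73 CPM, and in treated lungs it was 4.97 CPM. The other repressed genes were more abundant, with a control median of 22.0 CPM that stood at 8.84 CPM after bleomycin and at 16.5 CPM in the treated group.

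Most losses were of moderate size, with a few large ones. The median log2 ratio of bleomycin to control was -1.08, and the middle 50% of members lay between -1.34 and -0.90. The median log2 ratio of treated to control was -0.98, with the middle 50% between -1.26 and -0.80. Between -1 and -0.8 lay the bleomycin ratios of 48 members, between -1.5 and -1 those of 51, between -2 and -1.5 those of 13, and at or below -2 those of 7. The treated ratio was 85.4% of the bleomycin ratio in the median member. In 27 members the treated mean was at or below the bleomycin mean.

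The members nearest to the thresholds were not set apart from the genes that missed them. At the bleomycin threshold, the 3 nearest members had ratios of -0.8002, -0.8031 and -0.8034, and the 3 nearest genes outside had -0.7989, -0.7972 and -0.7954. At the treated threshold, the members with the smallest share of the bleomycin ratio left had 0.702, 0.704 and 0.705 of it, and the nearest genes outside had 0.697, 0.696 and 0.694. No gap in these values sets the 119 genes apart from their neighbours, as the plot of ratios shows.

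An edgeR quasi-likelihood fit to all genes gave each member an error and a call at an adjusted p below 0.05. The expression filter passed 114 of the 119 members, and the 5 that it left out are described with the single libraries below. Of the 114, 102 were called lower with bleomycin than in controls, where 18% of all 15000 tested genes were called lower. In treated lungs 87 were called lower than in controls, where the share of all tested genes was 4.47%. No member was called higher in either contrast, where 20.2% of tested genes were higher with bleomycin and 3.92% in treated lungs. Both contrasts were used to choose the members, so these counts describe the choice. The 2 comparisons share the control libraries, and 85 members were called in both, 17 with bleomycin alone, 2 in treated lungs alone and 10 in neither. At an unadjusted p below 0.05 in the same fit, 104 members were lower with bleomycin and 113 in treated lungs. The adjusted cut-off depends on all genes of a contrast, so a call in 1 contrast alone is not read as a difference between them. Leaving out 1 library at a time moved the 87 members to between 72 and 92, and leaving out treated libraries 13 and 17 together left 60. The number was 100 with DESeq2, 101 with limma voom and 94 with only the 2 groups compared. All tested genes called lower then numbered 980, 1362 and 901, against 671 in the main fit.

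Between treated and bleomycin lungs most members had a small positive log2 fold change within its error. The median log2 fold change over the 114 tested members was 0.13, with a median SE of 0.27, and 81 of them were higher in treated lungs and 33 lower. No member was called higher by edgeR, against 12.1% of all tested genes, and 1 had an unadjusted p below 0.05 in that direction. DESeq2 called 1 member higher and limma voom 0. In the lower direction 1 member was called, against 15.7% of all tested genes, and DESeq2 called 2. The treated threshold of the rule limits this difference, so nothing is read from either count. Without bleomycin library 7 the median log2 fold change was 0.044, and without bleomycin library 12 edgeR called 2 members higher. Without any one of control library 1, bleomycin libraries 9 and 11 and treated libraries 14 and 15 it called 1 higher, and without any one of control library 1 and treated libraries 16 and 17 it called 2 lower.

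The members' errors were wider than those of all tested genes. The median SE of a log2 fold change was 0.26 for bleomycin against control and 0.25 for treated against control over members, against 0.14 and 0.13 over all tested genes. Within the control group, the median SD of log2 values was 0.39 for members, 0.31 for the other repressed genes and 0.19 for all 13136 genes with a control mean of at least 2 CPM. Within treated lungs the same values were 0.37, 0.32 and 0.17. Members thus varied more between libraries of one group than the other sets did, and they were also scarcer; the part of their level in this was not tested.

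**Figure D2:**
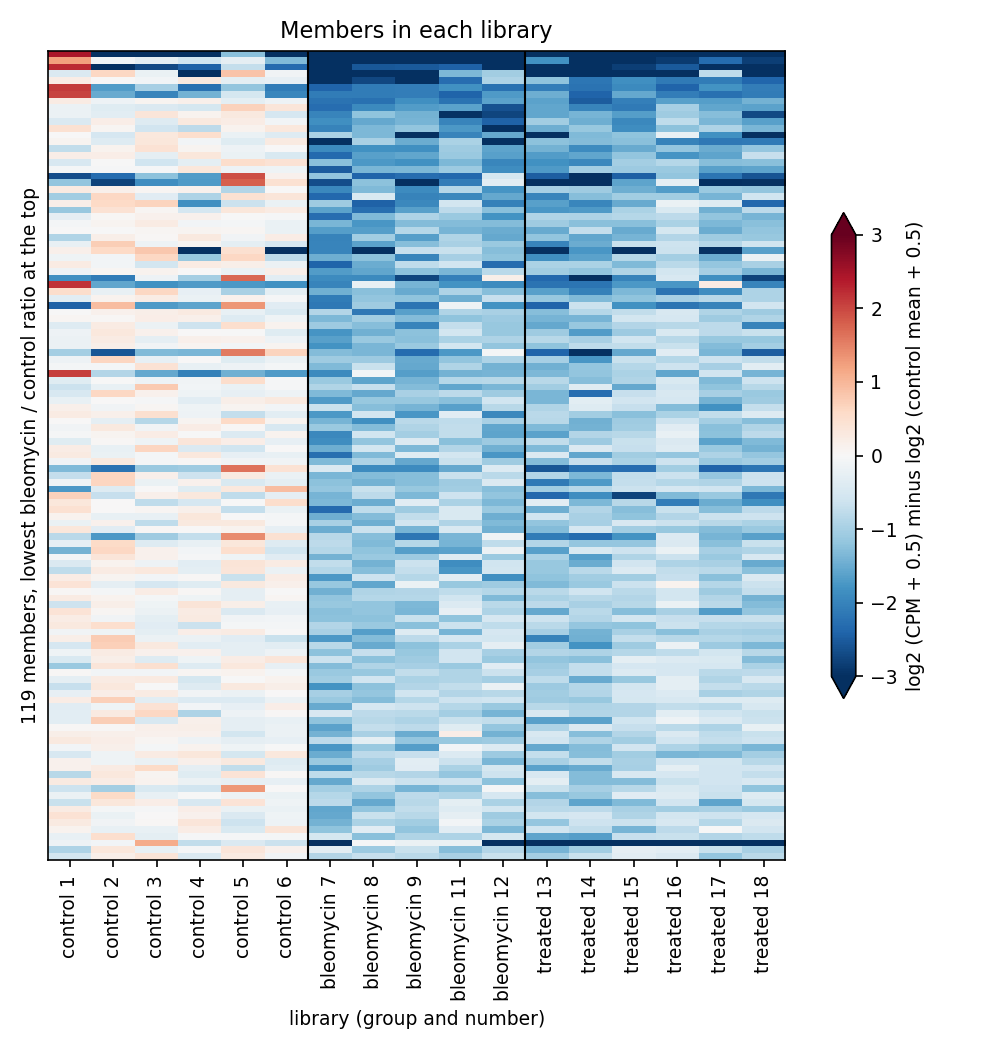
Rows are the 119 members, ordered by bleomycin ratio, and columns are the 17 libraries. Colour gives log2 (CPM + 0.5) minus log2 of the control mean + 0.5, and colours are capped at 3 in either direction. Bleomycin and treated columns are similarly blue, treated 16 and bleomycin 11 are the palest of their groups, and a few rows are red mainly in control 1 or control 5.

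A core of 53 members (44.5%) lay below all 6 control libraries in every one of the 5 bleomycin and 6 treated libraries. Of the 13136 genes with a control mean of at least 2 CPM, 2.15% had this pattern, and the rule favours it. Bleomycin libraries alone lay below all controls for 64 members (53.8%), where 11.3% of genes did so, and treated libraries alone for 63 (52.9%), where 3.42% did so. No member had all treated libraries above all bleomycin libraries, against 9.04% of genes, and none had them all below, against 5.6%. Among the other repressed genes, 500 (71.7%) had all bleomycin libraries below controls, but 98 (14.1%) had all treated libraries below controls and 235 (33.7%) had all treated libraries above bleomycin. The rule's treated threshold limits a rise over bleomycin and splits the members from the other repressed genes. These shares therefore describe the choice, and nothing is read from them.

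The 53 core members had a median log2 ratio of -1.13 with bleomycin and -0.94 in treated lungs. In controls the core's median was 14.98 CPM, compared with 4.96 CPM after bleomycin and 6.13 CPM in the treated group. Of the 15 members with at least 100 CPM in controls, 6 belonged to the core. The most abundant of these stood at 190.7 ± 29.6 CPM in controls (SD, n = 6), 99.7 ± 25.6 CPM with bleomycin (SD, n = 5) and 118.8 ± 8.31 CPM in treated lungs (SD, n = 6). Another had 103.4 ± 13.98 CPM in controls (SD, n = 6), 34.8 ± 11.9 CPM with bleomycin (SD, n = 5) and 40.9 ± 9.06 CPM in treated lungs (SD, n = 6). Of the 13 members with bleomycin ratios between -2 and -1.5, 10 belonged to the core, but of the 7 at or below -2 only 2 did, which are both named next.

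ENSRNOG00000019584 had the lowest bleomycin ratio among members of at least 5 CPM in controls whose bleomycin libraries all lay below them. Its control libraries ran from 5.69 CPM to 35.9 CPM with a median of 12.3 CPM, a mean of 14.98 ± 10.7 CPM (SD, n = 6). The bleomycin libraries stood at 0.251, 0.741, 0.395, 0.562 and 0.442 CPM in the order 7, 8, 9, 11 and 12, from 4 to 12 counts each. Treated libraries ran from 0.136 to 3.89 CPM with a median of 1.66 CPM. All bleomycin and treated libraries lay below all controls, while treated libraries lay on both sides of the bleomycin range. Control library 1 stood above the other controls, at 35.9 CPM against at most 14.03 CPM. The fitted log2 fold change was -4.90 (SE 0.67) with bleomycin and -3.13 (SE 0.54) in treated lungs against control, and 1.77 (SE 0.70) for treated against bleomycin. Without control library 1 the fitted values against control were -4.405 with bleomycin and -2.63 in treated lungs. Without treated libraries 13 and 17 the value for treated against control was -3.99, and with limma voom the value for bleomycin against control was -4.30. For treated against bleomycin the value ranged from 0.91 to 2.01 over the alternatives run. It was set in part by the rule, since the gene lay just inside the treated threshold with 0.705 of its bleomycin ratio left. Nothing is read from it, or from its calls under the alternatives, which are given at the end.

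ENSRNOG00000002718 was more abundant and more even among controls. The controls ran from 43.6 to 66.1 CPM with a median of 52.6 CPM, a mean of 53.9 ± 9.23 CPM (SD, n = 6). The bleomycin libraries stood at 5.15, 7.66, 3.49, 10.7 and 28.4 CPM in the order 7, 8, 9, 11 and 12. Treated libraries ran from 10.01 to 23.1 CPM with a median of 12.2 CPM. Every bleomycin and treated library lay below every control, and bleomycin library 12 and treated library 13 were the highest of their groups. The fitted log2 fold change was -2.23 (SE 0.39) with bleomycin and -1.95 (SE 0.36) in treated lungs against control. For treated against bleomycin the fitted value was 0.28 (SE 0.38), and without bleomycin library 12 it was 0.99. Without that library the fitted value for bleomycin against control was -2.93, and with limma voom, all libraries kept, it was -2.85.

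ENSRNOG00000005498 was the 1 member called lower by edgeR when treated lungs were set against bleomycin, and it was chosen after its values were seen. Controls ran from 5.47 to 20.9 CPM with a median of 7.63 CPM. The bleomycin libraries fell into 2 levels, with 9.20, 8.15 and 8.05 CPM in libraries 8, 9 and 11 and 0.188 and 0.253 CPM in libraries 7 and 12. In treated lungs the range was 0 to 0.268 CPM, which is 0 to 4 counts per library. All treated libraries thus lay below all controls, 3 bleomycin libraries lay within the control range, and bleomycin libraries 7 and 12 were as low as the treated libraries. The fitted log2 fold change was -0.81 (SE 0.63) for bleomycin against control, -5.85 (SE 0.89) for treated against control and -5.04 (SE 0.92) for treated against bleomycin. Its bleomycin ratio of -0.8034 lay just inside the threshold, and the mean behind that ratio averages these 2 levels.

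**Figure D3:**
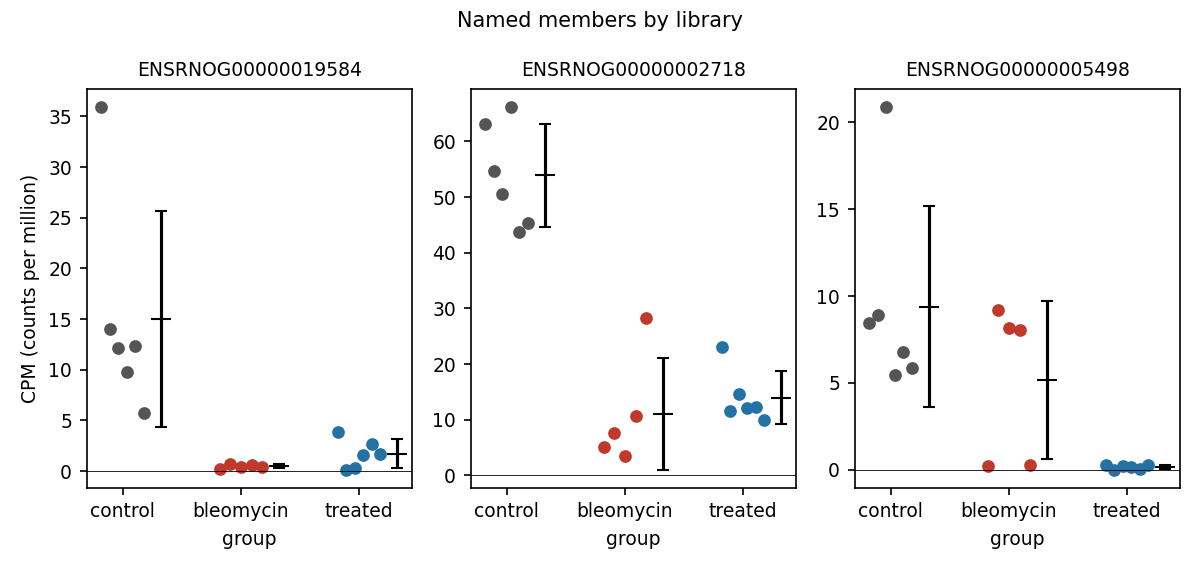
CPM of the 3 named members in each library, with the mean and SD of each group as a bar beside the points. ENSRNOG00000019584 and ENSRNOG00000002718 lie below every control in all bleomycin and treated libraries, and ENSRNOG00000005498 has 3 bleomycin libraries at control level and 2 near 0.

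The most abundant member was less sharply separated. Its controls ran from 1505 to 2771 CPM with a median of 1959 CPM. The bleomycin libraries stood at 704, 1276, 1142, 1696 and 965 CPM in the order 7, 8, 9, 11 and 12, so that library 11 lay within the control range. Treated libraries ran from 1093 to 1430 CPM with a median of 1391 CPM, all below the controls. The summed level of all 119 members was 7131 ± 1266 CPM in controls (SD, n = 6), while the bleomycin sum was 3577 ± 685 CPM (SD, n = 5) and the treated sum 3750 ± 491 CPM (SD, n = 6).

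Seen library by library, the members as a set stood between -0.13 and 0.064 in controls, by the median log2 difference from the control mean. The bleomycin libraries stood at -1.42, -1.23, -1.22, -0.94 and -1.11 in the order 7, 8, 9, 11 and 12. Treated libraries stood at -1.21, -1.27, -0.98, -0.66, -1.07 and -1.01 in the order 13 to 18. The bleomycin and treated ranges overlapped, and neither overlapped the controls, which the choice of the members favours. Treated library 16 was the nearest to control and carried the highest treated value of 53 members (44.5%). Among the other repressed genes that library was highest for 125 (17.9%), and treated library 13 was highest for 220 (31.6%).

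Treated library 13 thus held different places in the repressed sets. For the other repressed genes its median log2 difference from control was -0.33, second highest in the treated range of -0.50 to -0.31. For the members it was -1.21, second lowest, and it carried the lowest treated value of 36 members. In bleomycin lungs, library 11 was highest for 50 members (42.0%) and library 7 lowest for 50. For the other repressed genes library 8 was highest for 275 (39.5%) and library 7 lowest for 339. No labelled batch is at hand to set beside these places, and their source was not tested.

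Each library was also measured on genes that it had not helped to choose. The rule was applied without the library, and the log2 difference of that library from the control mean was taken over the genes so chosen. This measure was added after the data had been seen, and the remaining libraries, among them all other controls, still enter both sides. Treated libraries 13 to 18, each left out in turn, had medians of -1.06, -1.15, -0.85, -0.62, -0.99 and -0.84 over 119 to 146 chosen genes. Over the other repressed genes, chosen in the same way, the same 6 libraries had medians of -0.50 to -0.31. In each of the 6 treated libraries the members' median was the lower of both, with treated library 16 showing the smallest gap. Both sets were split by the treated ratio of the remaining libraries, against the same control mean. That split favours a lower median for the members, so the gap is given as a description.

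The left-out treated libraries lay below every control for 58.9% to 87.5% of the genes chosen without them, against 40.0% to 54.6% of the other repressed genes. Left-out control libraries, measured in the same way against the other 5 controls, did so for 12.4% to 37.3% of the chosen genes and 7.26% to 47.9% of the other repressed genes. Control library 1 gave the highest value of both, and for the other repressed genes it lay within the range of the treated libraries. The rule's own treated threshold was met by 34.9% of the chosen genes in treated library 16 and by 54.1% to 75.8% in the other treated libraries. Left-out bleomycin libraries had medians of -1.44 to -0.90 over the chosen genes and of -1.42 to -0.79 over the other repressed genes. Left-out control libraries stood at -0.28 to -0.049 over the chosen genes and at -0.31 to 0.026 over the other repressed genes.

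**Figure D4:**
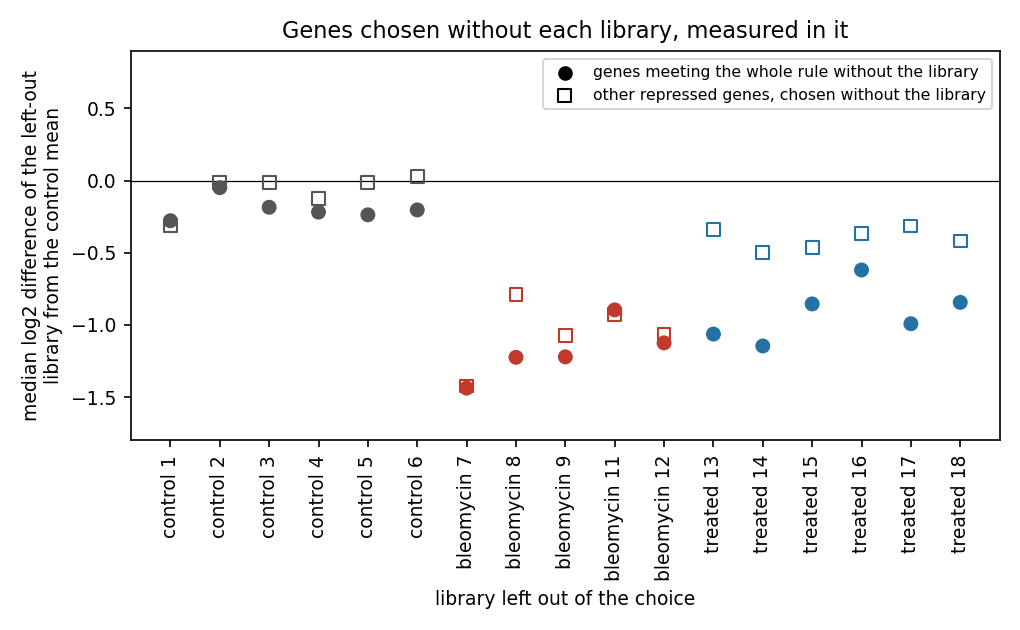
For each library, the rule was applied to the other 16 libraries, and the point gives the left-out library's median log2 difference from the control mean. Filled circles are genes meeting the whole rule (113 to 146 genes) and open squares are the other repressed genes. In treated libraries the circles lie at -1.15 to -0.62 and the squares at -0.50 to -0.31, while in bleomycin libraries both kinds lie between -1.44 and -0.79.

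Without one library the rule found 113 to 146 genes and kept 79.8% to 100% of the 119. Only 46 members were chosen in all 17 such selections, among them 26 of the 53 core members. With group medians in place of means the rule found 111 genes, of which 69 were members.

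In 10 members (8.40%) a single control library held at least 50% of the control sum, against 0.717% of the other repressed genes and 0.244% of all genes with a control mean of at least 2 CPM. Control library 1 was that library for 6 of them. These 6 stood at 10.3 to 170.2 CPM in control library 1, at most 12.7 CPM in any other control, at most 2.29 CPM in any bleomycin library and at most 3.32 CPM in any treated library. The member with the lowest bleomycin ratio of all was one of them, with 170.2 CPM in control library 1 and 0.117 to 12.7 CPM in the other controls. The expression filter left out 5 of these 6 because few libraries had enough counts. Without control library 1 the rule chose 1 of the 6.

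Control library 5 held at least 50% of the control sum for the other 4. These 4 belong to 8 members that were highest in control library 5 among controls, in library 12 among bleomycin lungs and in library 16 among treated lungs, a pattern that 5 of the other repressed genes had. The most abundant of the 8 reached 1347 CPM in control library 5, 527 CPM in bleomycin library 12 and 401 CPM in treated library 16. Relative to the control mean, the 8 members had a median log2 difference of 1.60 in control library 5 and 0.28 in control library 6, and of -2.15 to -1.05 in controls 1 to 4. The median was -0.22 in bleomycin library 12 and -2.23 to -1.15 in the other bleomycin libraries. It was -0.46 in treated library 16 and -2.78 to -1.62 in the other treated libraries.

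By these medians, controls 1 to 4 lay within the range of the bleomycin and treated libraries. In 6 of the 8 the treated mean was at or below the bleomycin mean. One of the 8 had ranges apart from controls in both other groups, 1 was called lower with bleomycin and 2 in treated lungs. Without control library 5 the rule chose 1 of the 8. They were picked for this pattern after the values were seen, so no test is given.

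**Figure D5:**
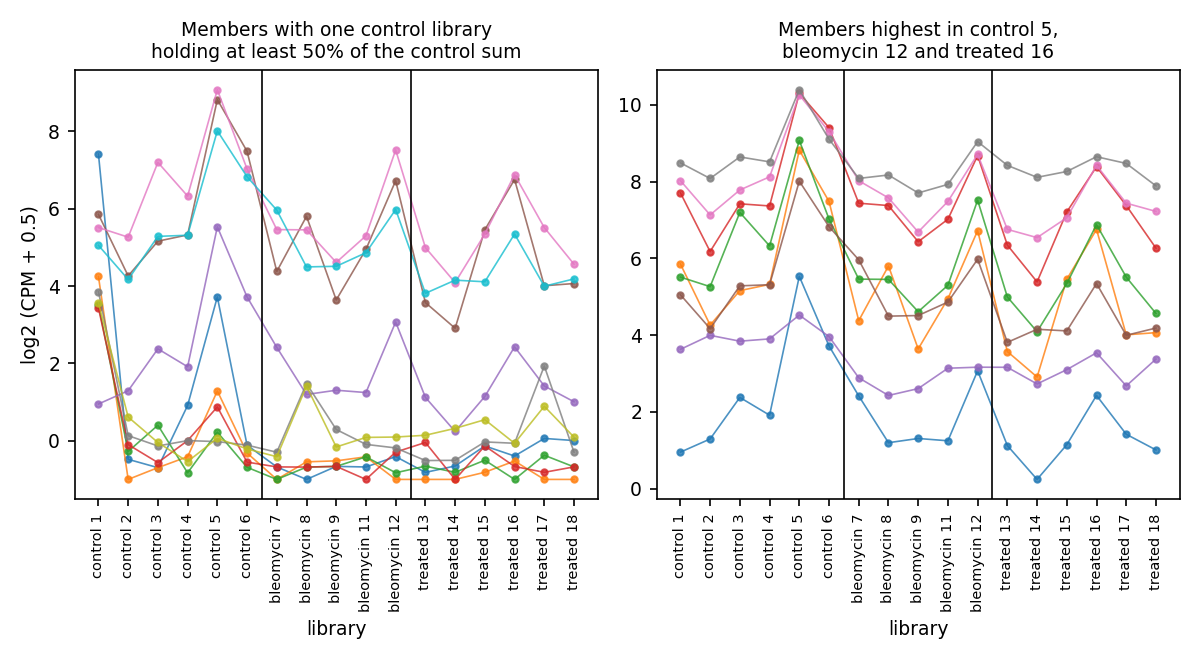
Lines join the log2 (CPM + 0.5) of one gene across the 17 libraries. The left panel shows the 10 members with at least 50% of the control sum in one library, the right panel the 8 members highest in control 5, bleomycin 12 and treated 16. On the left, 6 genes peak in control 1 (10.3 to 170.2 CPM), and 4 genes appear in both panels. On the right, each line has its group maximum in the same library.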

How the data were processed

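Messenger RNA of lung parenchyma was measured in 17 libraries. Tools named, per the submitters' processing notes, were bcl2fastq 2.20.0.422, FastQC 0.11.5, STAR 2.5.2 and 2.5.2b, featureCounts 1.5.1 and RSEM 1.3.0, with the builds Rnor_6.0, hg38 and GRCh38. The role of each, the annotation and the strand setting were not given in the sources used here, so genes with near-identical or overlapping copies are uncertain. The authors deposited raw counts per Ensembl gene ID, and each column matched 1 label.

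The members and lists were chosen with earlier results of these data known. CPM were computed from column sums. Counts were fitted in R 4.3.3 with edgeR 4.0.16 (filterByExpr, TMM scaling, quasi-likelihood F test, 3 groups in 1 fit; SE taken as the fold change over the root of F), with Benjamini-Hochberg adjustment over 15000 genes. The fit was checked on simulated counts. Alternatives used DESeq2 1.42.0, limma 3.58.1 (voom), other scalings, and fewer libraries. Without symbols, the naming rule gave IDs only for the 2 members with the lowest bleomycin ratio among those with at least 5 CPM in controls and bleomycin libraries all below controls. Marker and pathway lists were not run.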

Additional observations from a re-analysis of the deposited data

Results flagged for a closer look

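Dixon's test was applied to 30 groups of values and found 12 with an extreme library. The rule takes in genes whose control mean rests on 1 library. The expression filter left out 5 of the 10 members with at least 50% of the control sum in 1 control library. The usual rate of about 1 in 20 therefore does not apply here, and the 12 are listed as a description. In control library 1, ENSRNOG00000019584 stood at 35.9 CPM against 5.69 to 14.03 CPM in the other controls. The 5 members left out by the expression filter stood in the same library at 170.2, 18.5, 10.9, 10.3 and 13.96 CPM. The last of these also stood apart at 2.29 CPM in bleomycin library 8 and at 3.32 CPM in treated library 17. The one at 18.5 CPM stood apart at 0.195 CPM in treated library 16, against 0 to 0.068 CPM in the other treated libraries. These treated values are all near 0. ENSRNOG00000005498 reached 20.9 CPM in control library 3 against at most 8.88 CPM in the other controls. ENSRNOG00000002718 reached 23.1 CPM in treated library 13 against at most 14.6 CPM in the other treated lungs. The summed level of the members was 4721 CPM in treated library 16 and 3404 to 3716 CPM in the other treated libraries.

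Over all members, 22 (18.5%) had a control library that far from the rest, 14 (11.8%) a bleomycin library and 16 (13.4%) a treated library. Among all genes with a control mean of at least 2 CPM the shares were 5.47%, 7.23% and 4.59%. The cause was not tested.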

How the results depend on the processing

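The number of genes meeting the rule, 119, was 71 with a bleomycin ratio of at most -1, and 293 or 46 with a treated share of 0.5 or 0.9. These changes follow from stricter or looser thresholds. The offset moves the ratios of scarce genes most. With an offset of 2 CPM the number was 77, of which 72 were members, and with 0.1 CPM it was 136, of which 115 were members. With TMM-scaled CPM it was 119 again, of which 99 were members. Without one library at a time it was 113 to 146. Members called lower numbered 94 to 103 with bleomycin and 72 to 92 in treated lungs under the same omissions. With DESeq2 they numbered 103 with bleomycin and 100 in treated lungs, and with limma voom 101 in each. The core of 53 numbered 50 with TMM-scaled CPM. Omitting a library cannot lower that count, which then reached at most 62. Members called higher in treated than in bleomycin lungs numbered 0 to 2, and 1 with DESeq2, and members called lower 1 to 2, and 2 with DESeq2. The median log2 fold change of treated against bleomycin was 0.044 to 0.17 without single libraries and 0.19 with library totals as the only scaling. No named member's log2 fold change changed sign under the alternatives run, but some calls changed. ENSRNOG00000019584 was called higher in treated than in bleomycin lungs with DESeq2, and without control library 1, treated library 14 or treated library 15. ENSRNOG00000002718 was called higher in that contrast without bleomycin library 12. The rule limits this difference, so nothing is read from these calls. The lists of markers and pathways were not run for want of symbols. No paired analysis was possible because library numbers run on across groups and none recurs.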
